A study of Mus musculus with 6 samples.

Results

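The genes described here are the nuclear genes of the mitochondrial ribosomal proteins, taken as every protein-coding symbol that starts with Mrpl or Mrps followed by a number. There were 78 of them among the 25690 gene symbols to which the estimated transcript counts were summed. All 78 were among the 15474 genes tested, and the lowest estimated count of any of them in any library was 152. Values were RNA-seq of CD27SP NK cells, immature natural killer cells sorted from bone marrow (BM) as NK1.1+CD27+CD11b-CD3/19-, in 3 libraries of each genotype. The Ncr1cre Myc fl/fl mice carry loxP-flanked Myc alleles and a Cre recombinase expressed from the Ncr1 locus. The Ncr1cre Myc wt/wt controls carry the same Cre with unmodified Myc, and both lines were kept on a C57BL/6 background, with mice matched for sex and age. The Ncr1 locus comes on during the immature stage, so deletion in the sorted cells is recent. The libraries are numbered 1, 2 and 4 in each genotype. Nothing in the labels ties a number to a mouse, so the P-values measure the spread between these libraries.

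Mitochondria translate with a ribosome of their own, the mitoribosome, which makes the few proteins encoded by mitochondrial DNA, all of them core subunits of the respiratory chain and the ATP synthase. Its rRNAs come from the mitochondrial genome, whereas its proteins are made in the cytosol from nuclear genes and imported. The large subunit joins amino acids and holds the exit tunnel, and the small subunit decodes the mRNA. Part of the proteins have a counterpart in the bacterial ribosome, and the rest were gained in mitochondria. Myc, with its partner Max, binds E-box sequences and is known to promote genes of ribosome formation and of mitochondria in many cell types.

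By structure, 51 of the 78 genes encode proteins of the large subunit and 26 proteins of the small subunit. Mrps30 and Mrps18a, in spite of their symbols, belong to the large subunit. Mrps36, now known as a component of the 2-oxoglutarate dehydrogenase complex, was placed in neither. A bacterial counterpart is known for 46 of the proteins, and 31 are specific to mitochondria. The genes lie on 17 chromosomes, with 11 on chromosome 11.

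Promoter windows from RefSeq (GRCm38.p6, 250 bases before to 50 bases after each start) were found for 69 of the 78 genes, as 75 windows. The E-box CACGTG, which reads the same on both strands, was in 9.33% of these windows and in 9.29% of the windows of all tested genes. It was found in 5 of the 69 genes (7.25%, against 10.98% of all). The windows around these E-boxes are shown because they are the sites of this set that have the letters best known for Myc and Max, and the capitals mark the E-box.
Mrpl36 (chr13:73330954-73330983, plus strand): cacacgtcatccCACGTGaccttacgccat
Mrpl20 (chr4:155802833-155802862, plus strand): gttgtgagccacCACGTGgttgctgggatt
Mrps18c (chr5:100798584-100798613, plus strand): gcagccccgggtCACGTGacttccggcccg
Mrpl37 (chr4:107067011-107067040, minus strand): agcaagtttcttCACGTGtggcacttcaga
Mrpl2 (chr17:46646078-46646107, plus strand): actgccgcccgtCACGTGacccgagcaacc

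The E-box was separated from the RefSeq start by 37 bases in Mrpl36, 27 in Mrpl20, 157 in Mrps18c and 156 in Mrpl37. In Mrpl2, which has 3 listed starts, the distance was 125 to 141 bases. The log2 fold changes of these genes between the genotypes, described below with the test, were −0.39, −0.31, −0.31, −0.17 and 0.12 in the order shown. The median was −0.31 for the 5 genes with the E-box and −0.31 for the matched genes without it. Of the other motifs searched on both strands, the E-box variant CACGCG was in 18.8% of the genes and 18.5% of all. The palindromic NRF1 motif was in 4.35% of the genes and 2.17% of all. The core of the motif bound by ETS factors, CCGGAAG, was in 26 of the 69 genes (37.7%, against 18.9% of all). Shown with this motif in capitals are 4 of the genes taken up below, to be read beside their values.
Mrpl34 (chr8:71464878-71464907, plus strand): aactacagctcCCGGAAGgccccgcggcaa
Mrpl58 (chr11:115403722-115403751, plus strand): ggctggcggaccgCCGGAAGagtgagcacc
Mrps18a (chr17:46110967-46110996, plus strand): acacccctgctCCGGAAGcggaagtgcaca
Mrps18c (chr5:100798592-100798621, plus strand): gggtcacgtgaCTTCCGGcccgggaagcgc

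In Mrps18c the match was on the opposite strand and lay next to the E-box, without shared letters. The genes with the ETS motif had a median log2 fold change of −0.31, and so had those without it. A match in these windows describes letters and was not tested as a binding site.

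The libraries held 54550907 to 64962491 estimated counts, except wt/wt library 1, with 8101219. The targeted gene Myc stood at 200.5, 183 and 164 CPM, that is, counts scaled to a common library size, in wt/wt libraries 1, 2 and 4 and at 61.5, 64.6 and 76.5 CPM in the fl/fl libraries. The log2 fold change was thus −1.44 (standard error, SE, 0.15, adjusted p = 0.00189, edgeR). The 12 NK markers summed to 15260 to 15803 CPM in wt/wt and 17655 to 19586 CPM in fl/fl libraries, with none past the threshold in edgeR. Of these, 9 had a log2 fold change above 0 and 3 below, in a range from −0.64 to 1.73, and 1 was higher at an adjusted p below 0.05 in edgeR. By median log2 fold change, markers of other bone marrow cells differed more than the NK markers (0.21), except those of T cells (0.17). The sum of 8 basophil and mast cell markers was 15.1 to 18.5 CPM in wt/wt and 122 to 334 CPM in fl/fl libraries, and all 8 passed. For 5 granulocyte and monocyte progenitor markers it was 82.4 to 125 and 522 to 878 CPM, and all 5 passed. Erythroid markers summed to 24.4 to 144 and 282 to 592 CPM (2 of 5 passed), and monocyte markers to 1658 to 1865 and 2085 to 2370 CPM (4 of 5). The monocyte markers had log2 fold changes from 0.25 to 2.08, with a median of 1.90, so their sum changed less than most of them. None passed among the markers of neutrophils, B cells and T cells, which summed to 3.64 to 15.8, 3.77 to 8.52 and 228 to 477 CPM in wt/wt and to 12.3 to 29.6, 11.2 to 14.4 and 239 to 322 CPM in fl/fl libraries. The 5 neutrophil markers tested, of 6, were all higher, at a median log2 fold change of 1.66. Among them 2 were at an adjusted p below 0.05 in edgeR (4.45% of all genes as higher). Of 5 B cell markers 4 were tested. No marker on these lists was at 0 in all libraries. The part of these cells in the values below was not tested. In bulk RNA, fewer cells of a type and less RNA per cell cannot be told apart.

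Most mitochondrial ribosomal protein genes had log2 fold changes below 0 in fl/fl cells, and few passed a test on their own. The log2 fold change was below 0 in 76 of the 78 genes (97.4%, against 48.5% of all 15474 genes tested). Its median was −0.32, which is close to the middle of a range from −0.90 (Mrpl34) to 0.13 (Mrpl4), and the median over all genes was 0.014. Between −0.5 and −0.2 lay 50 of the genes, 11 were at −0.5 or lower, and 17 were above −0.2. The median SE was 0.15. In edgeR with the replicate number as a block, none of the 78 passed the threshold of an adjusted p below 0.01 and a log2 fold change of at least 0.5 in size (0.872% of all genes passed it as lower and 1.28% as higher). At an adjusted p below 0.05 in edgeR, 5 genes were lower (6.41%, against 3.38% of all) and none was higher (4.45% of all). At an unadjusted p below 0.05, 35 were lower (44.9%, against 10.2% of all) and 0 were higher (12.4% of all). In edgeR without the block, 1 gene passed the threshold as lower (1.28%, against 1.19% of all). At an adjusted p below 0.05 it found 10 lower (12.8%, against 4.47% of all) and 0 higher (5.14% of all). With DESeq2 and the block, 5 passed the threshold as lower (6.41%, against 3.47% of all), the same 5 genes that edgeR had at an adjusted p below 0.05. DESeq2 had 14 lower at an adjusted p below 0.05 (17.9%, against 5.74% of all) and 0 higher (6.86% of all).

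**Figure D1:**
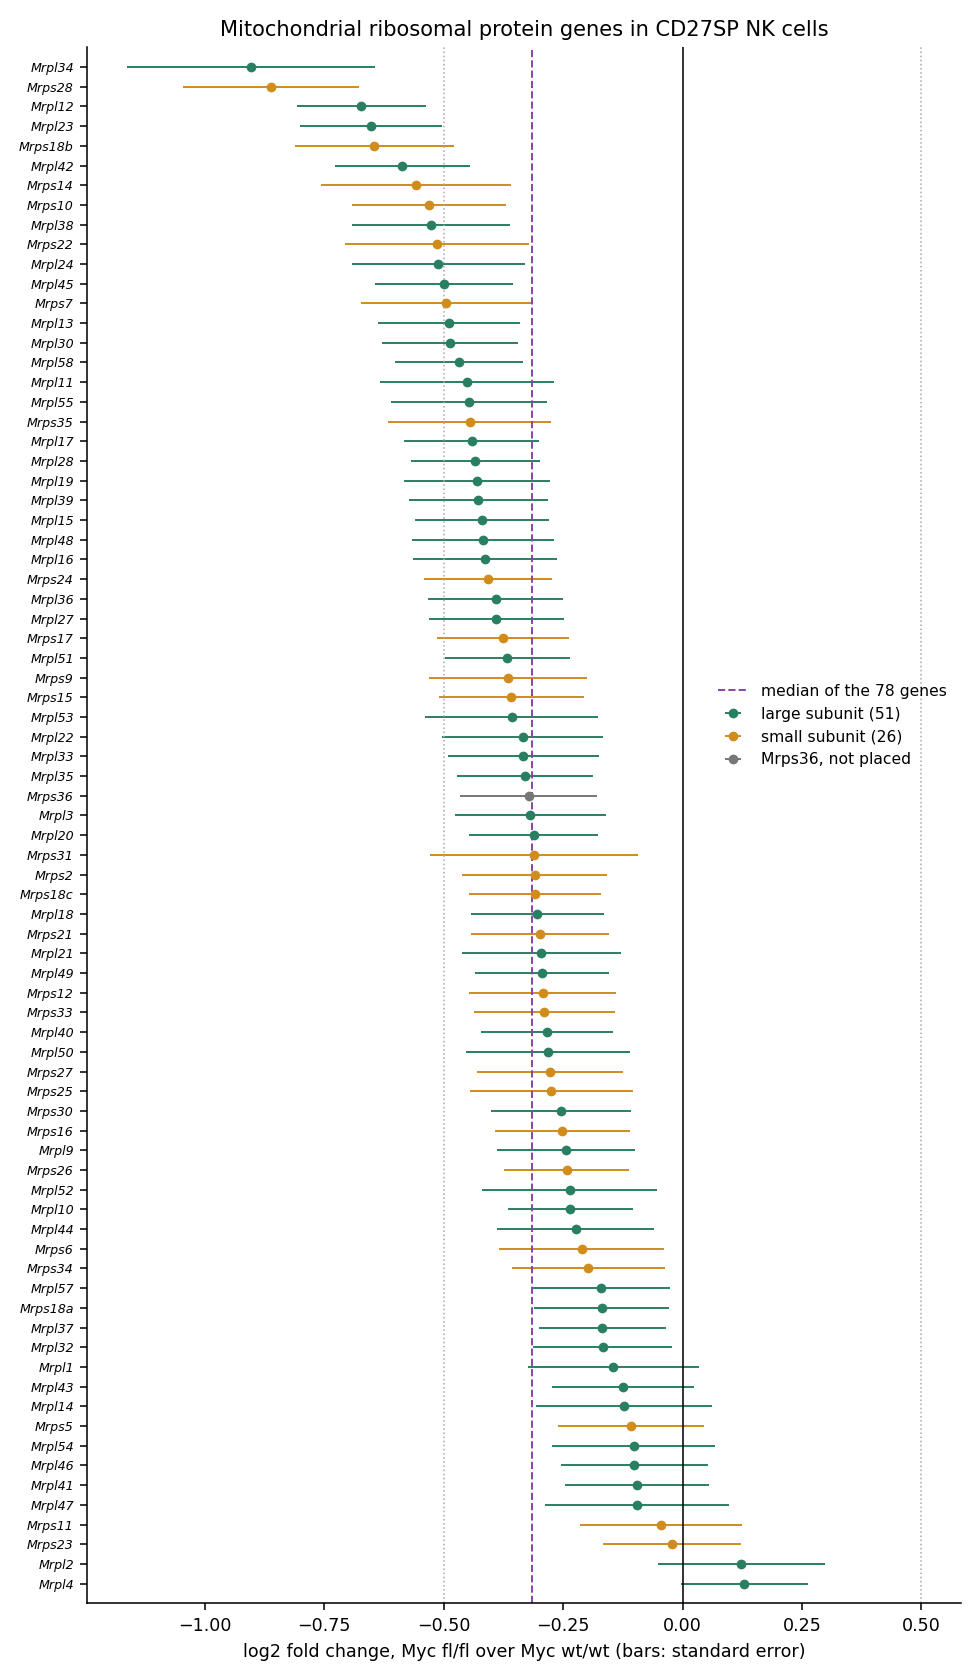
Log2 fold change of each of the 78 genes in fl/fl over wt/wt CD27SP NK cells (points, edgeR) with its standard error (bars), in order of size and coloured by subunit. All but Mrpl2 and Mrpl4 lie left of 0, and the dashed line marks the median of −0.32.

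Counted library by library, the levels of 50 genes did not overlap between the genotypes, with each fl/fl library below each wt/wt library (64.1%, against 15.1% of all genes). No gene had each fl/fl library above each wt/wt library (16.2% of all). When libraries of the same number were set against each other, 56 genes were lower in all 3 comparisons (71.8%, against 21.2% of all) and 1 was higher (1.28%, against 24.2% of all). The medians of these log2 differences were −0.35, −0.20 and −0.41 for numbers 1, 2 and 4. The comparison of the libraries numbered 2 was thus the smallest, and fl/fl library 2 was the highest of its genotype in 56 of the 78 genes. The lowest fl/fl library was library 4 in 52 genes. With both libraries of number 1 left out, which removes the shallow one, 77 genes were below 0 (98.7%, against 49.8% of all) and the median was −0.29. At an unadjusted p below 0.05 there were then 18 lower genes (23.1%, against 8.89% of all), and none was left at an adjusted p below 0.05 in edgeR (1.69% of all). The levels of the remaining libraries did not overlap in 62 genes (79.5%, against 27.4% of all). With only wt/wt library 1 left out, they did not overlap in 61 (78.2%, against 22.3% of all).

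Both subunits showed the pattern. All 26 small subunit genes were below 0, at a median of −0.31 on the log2 scale, and so were 49 of the 51 large subunit genes, with a median of −0.33. At an adjusted p below 0.05 in edgeR were 2 small (7.69%) and 3 large subunit genes (5.88%), against 3.38% of all genes. The 46 genes with a bacterial counterpart had a median of −0.35, with 34 that did not overlap between the genotypes (73.9%). For the 31 genes specific to mitochondria the median was −0.28, and 15 did not overlap (48.4%, against 15.1% of all genes). The difference between these groups was not tested.

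Mrpl12 encodes the stalk protein of the large subunit, which recruits translation factors to the ribosome, and it had the smallest adjusted p of the set. Its level was 77.6, 68.0 and 68.9 CPM in wt/wt libraries 1, 2 and 4 and 45.4, 44.2 and 44.7 CPM in fl/fl libraries 1, 2 and 4. Each fl/fl library was below each wt/wt library, of which library 1 was the highest. The log2 fold change of Mrpl12 (chr11:120484613-120489065, GRCm38) was −0.67 (SE 0.13, adjusted p = 0.0171, edgeR), which leaves 62.8% of the wt/wt level. Without the block the adjusted p was 0.00832 in edgeR, and Mrpl12 was then the only member past the threshold. With coding transcripts alone, described below, its log2 fold change was −0.53 (adjusted p = 0.0646, edgeR), and 30.6% of its counts in wt/wt library 1 were on noncoding transcripts, against 1.75% to 5.92% in the other libraries. Mrpl10, which anchors Mrpl12 in the stalk, is named here after its values were seen. It stood at 72.9, 83.0 and 82.7 CPM in wt/wt and 64.4, 70.0 and 68.2 CPM in fl/fl libraries, a log2 fold change of −0.23 (adjusted p = 0.333, edgeR). The ratio of Mrpl12 to Mrpl10 CPM was 1.06, 0.820 and 0.833 in wt/wt and 0.706, 0.630 and 0.655 in fl/fl libraries, so the groups did not overlap in this ratio.

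Mrps28 of the small subunit had 37.7, 29.3 and 29.3 CPM in wt/wt libraries and 16.3, 16.5 and 19.9 CPM in fl/fl libraries. Each fl/fl library was below each wt/wt library, with wt/wt library 1 the highest. The log2 fold change of Mrps28 (chr3:8802146-8923918, GRCm38) was −0.86 (SE 0.18, adjusted p = 0.0225, edgeR). Mrpl23 (chr7:142532686-142540747), a large subunit protein at the exit of the nascent chain tunnel, had 59.8, 72.1 and 80.7 CPM in wt/wt and 42.7, 50.02 and 42.2 CPM in fl/fl libraries. Here wt/wt library 1 was the lowest of its genotype, and still above all fl/fl libraries. Its log2 fold change was −0.65 (SE 0.15, adjusted p = 0.0285, edgeR). Mrpl42 (chr10:95480805-95501940), a large subunit protein specific to mitochondria, stood at 167, 131 and 143 CPM in wt/wt and 93.8, 101 and 97.6 CPM in fl/fl libraries. The fl/fl libraries were within 8 CPM of each other, and the log2 fold change was −0.59 (SE 0.14, adjusted p = 0.0359, edgeR). Without replicate 1 the adjusted p in edgeR was 0.0948 for Mrps28, 0.0696 for Mrpl12, 0.0557 for Mrpl23 and 0.139 for Mrpl42, with log2 fold changes of −0.69, −0.62, −0.73 and −0.47.

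Mrps18b is the fifth gene at an adjusted p below 0.05, and it belongs to a family of 3 genes related to a single protein of the bacterial small subunit. Mrps18c is the counterpart of that protein, Mrps18b sits elsewhere in the small subunit, and Mrps18a is part of the large subunit. Mrps18b (chr17:35910379-35916389) had 48.8, 47.2 and 38.9 CPM in wt/wt and 25.5, 29.3 and 31.1 CPM in fl/fl libraries, without overlap. Its log2 fold change was −0.65 (SE 0.17, adjusted p = 0.0458, edgeR), and without replicate 1 it was −0.50 (adjusted p = 0.183, edgeR). Mrps18c, with both motifs in the window shown above, had 58.7, 63.0 and 66.5 CPM in wt/wt and 50.5, 53.7 and 47.9 CPM in fl/fl libraries and a log2 fold change of −0.31 (SE 0.14, adjusted p = 0.223, edgeR). For Mrps18a the levels were 52.9, 50.05 and 52.0 and 47.2, 49.2 and 41.7 CPM, with a log2 fold change of −0.17 (SE 0.14, adjusted p = 0.546, edgeR). All 3 genes had each fl/fl library below each wt/wt library. The ratio of Mrps18b to Mrps18a CPM was 0.924, 0.942 and 0.749 in wt/wt and 0.540, 0.595 and 0.747 in fl/fl libraries, so that fl/fl library 4 came to within 0.002 of the lowest wt/wt library. The ratio of Mrps18b to Mrps18c CPM was 0.832, 0.748 and 0.586 in wt/wt and 0.505, 0.546 and 0.650 in fl/fl libraries, and here the groups overlapped. Whether the 3 genes differ in their change was not tested.

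**Figure D2:**
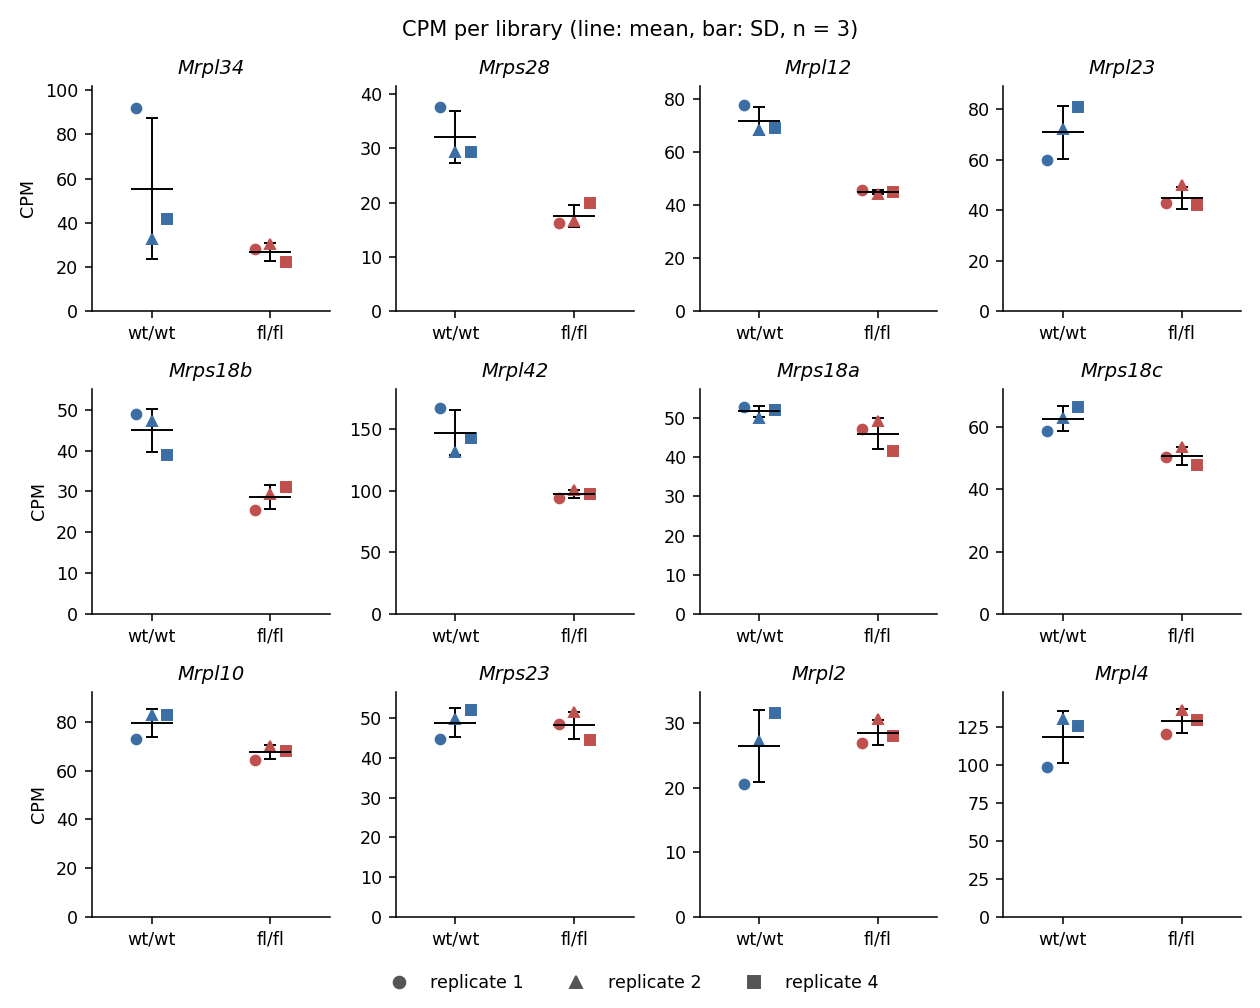
CPM of 12 of the genes in each library (symbols by replicate number), with the mean (line) and SD (bar) of the 3 libraries of a genotype. In Mrpl34, Mrps28, Mrpl12, Mrpl23, Mrps18b and Mrpl42 all fl/fl symbols lie below all wt/wt symbols, while those of Mrps23, Mrpl2 and Mrpl4 are intermixed.

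Mrpl34 had the lowest log2 fold change of all 78 genes, and its size moved with the shallow library. This small protein of the large subunit, whose window with the ETS motif is shown above, stood at 91.9, 32.6 and 41.6 CPM in wt/wt libraries 1, 2 and 4 and at 28.0, 30.3 and 22.3 CPM in fl/fl libraries. The log2 differences between libraries of the same number were −1.71, −0.11 and −0.90 for numbers 1, 2 and 4. The value of wt/wt library 1 was 2.21 times the higher of the other wt/wt libraries, and the lowest wt/wt library was close to the highest fl/fl library. The log2 fold change was −0.90 (SE 0.26, adjusted p = 0.0657, edgeR) with all libraries and −0.50 (adjusted p = 0.274, edgeR) without replicate 1. Mrps14, a small subunit protein with a bacterial counterpart, was similar, with 244, 119 and 132 CPM in wt/wt and 108, 114 and 97.1 CPM in fl/fl libraries. Its log2 fold change was −0.56 (adjusted p = 0.126, edgeR), and −0.25 without replicate 1. With coding transcripts alone it was −0.35 (adjusted p = 0.204, edgeR). Noncoding transcripts held 82.3% of the Mrps14 counts in wt/wt library 1 and 66.4% to 69.5% in the other libraries. In 8 of the 78 genes, wt/wt library 1 was at least 1.3 times as high as both other wt/wt libraries. Over the set, that library was the highest of its genotype in 37 genes and the lowest in 31, so it was seldom the middle one. The 78 genes summed to 4662 CPM in it, against 4165 and 4328 CPM in wt/wt libraries 2 and 4.

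Mrpl58, a peptidyl-tRNA hydrolase that frees stalled mitoribosomes and is also built into the large subunit, had 66.0, 69.8 and 69.8 CPM in wt/wt and 50.7, 49.6 and 48.5 CPM in fl/fl libraries. The libraries within a genotype differed by less than 4 CPM, and the genotypes were over 15 CPM apart. The log2 fold change was −0.47 (SE 0.13, adjusted p = 0.0639, edgeR), and −0.41 with coding transcripts alone (adjusted p = 0.222, edgeR). Noncoding transcripts held on average 45.6% of the Mrpl58 counts in wt/wt and 43.2% in fl/fl libraries. Mrps12, a protein of the decoding centre of the small subunit, had 51.2, 41.3 and 39.8 CPM in wt/wt and 34.8, 38.4 and 34.0 CPM in fl/fl libraries, with a log2 fold change of −0.29 (adjusted p = 0.305, edgeR). Mrps30 had 70.2, 54.7 and 53.3 CPM in wt/wt and 49.1, 51.3 and 47.6 CPM in fl/fl libraries, with a log2 fold change of −0.25 (adjusted p = 0.350, edgeR). Neither gene overlapped between the genotypes, and in both the highest wt/wt value was that of library 1. Mrps36, which is no part of the mitoribosome, was at 49.2, 50.3 and 54.4 CPM in wt/wt and 41.3, 43.4 and 38.5 CPM in fl/fl libraries, without overlap. Its log2 fold change of −0.32 (SE 0.14, adjusted p = 0.221, edgeR) lay at the middle of the set.

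At the other end of the range, the 6 highest log2 fold changes lay between −0.10 and 0.13. Mrpl4 (chr9:21002738-21008839, GRCm38), a large subunit protein that lines the exit tunnel, had 98.7, 130.0 and 126 CPM in wt/wt and 120.5, 136 and 129 CPM in fl/fl libraries. It was the only gene of the set higher in fl/fl in all 3 comparisons of libraries with the same number, by a log2 fold change of 0.13 (SE 0.13, adjusted p = 0.637, edgeR). Mrpl2, near the catalytic centre of the large subunit and holder of an E-box in the window above, had 20.5, 27.2 and 31.5 CPM in wt/wt and 26.9, 30.6 and 28.0 CPM in fl/fl libraries. In both genes the groups overlapped and wt/wt library 1 was the lowest of all 6 libraries. For Mrpl2 the log2 fold change was 0.12 (SE 0.17, adjusted p = 0.750, edgeR). Without wt/wt library 1, in a fit without the block, both turned below 0, to −0.056 for Mrpl2 and −0.0062 for Mrpl4. The other 4 were the small subunit genes Mrps23 and Mrps11 and the large subunit genes Mrpl47 and Mrpl41. Their log2 fold changes were −0.022, −0.045, −0.10 and −0.10, with standard errors of 0.14 to 0.19 and overlapping groups. Mrps11 and Mrpl46 lie head to head on chromosome 7 of GRCm38 (78783119 to 78792989 and 78775236 to 78783531) and overlap. The library kit keeps no strand, so reads from their shared stretch cannot be told apart.

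Compared per transcript length, as TPM, which scale counts to transcript length and library size, the members covered a 36.9-fold range. The mean over the 6 libraries ran from 12.2 to 451 TPM, with a median of 78.4, and 29 genes had 100 TPM or more. Mrpl33 was the highest, with 633, 425 and 446 TPM in wt/wt and 415, 368 and 420.4 TPM in fl/fl libraries. It was followed by Mrpl42 (mean of 317 TPM), Mrps21 (312 TPM), Mrps14 (271 TPM) and Mrps33 (207 TPM). The order of Mrpl42 and Mrps21 was not the same in both genotypes, since Mrpl42 was above Mrps21 in wt/wt library 1, within 1 TPM of it in wt/wt libraries 2 and 4, and below it in fl/fl libraries. The log2 fold changes of Mrpl33, Mrps21 and Mrps33 were −0.33, −0.30 and −0.29 (adjusted p from 0.249 to 0.288, edgeR). At the bottom were Mrpl11 of the stalk base, with 12.5, 13.7 and 14.8 TPM in wt/wt and 12.1, 11.4 and 8.88 TPM in fl/fl libraries, then Mrpl1 (12.95 TPM) and Mrps31 (15.9 TPM). Their log2 fold changes were −0.45, −0.14 and −0.31 (adjusted p = 0.176, 0.709 and 0.456, edgeR). Over the 78 genes the log2 fold change had a Spearman correlation of −0.15 with the mean TPM and of 0.098 with the transcript length. These are descriptions over genes that share the same 6 libraries.

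**Figure D3:**
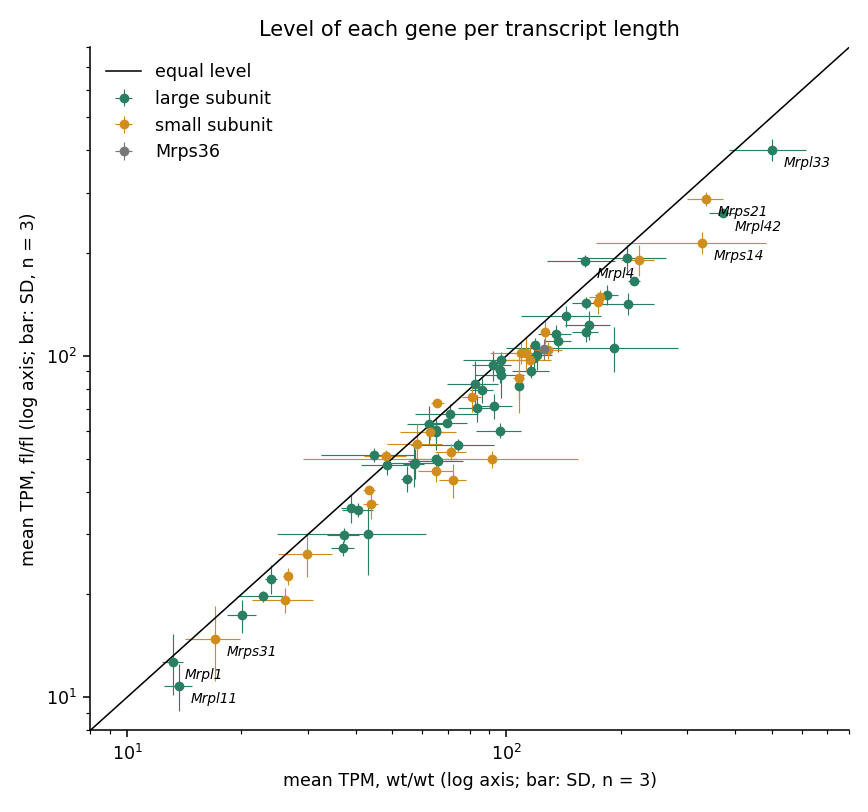
Mean TPM of each gene in wt/wt (horizontal) and fl/fl libraries (vertical), both on log axes, with SD bars over 3 libraries and the line of equal level. Most points lie just below the line from the lowest gene (Mrpl11) to the highest (Mrpl33), and Mrpl4 lies above it.

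Summed over the set, the genes held 0.443, 0.426 and 0.436 percent of all counts in wt/wt libraries 1, 2 and 4 and 0.349, 0.365 and 0.324 percent in fl/fl libraries 1, 2 and 4. The groups did not overlap, and the means were 0.435 ± 0.00856 and 0.346 ± 0.0205 percent (SD, n = 3 each), so fl/fl cells had 79.5% of the wt/wt share. For the shallow wt/wt library 1 the 95% Wilson interval was 0.438 to 0.448 percent, which covers counting error only. The large subunit genes held 0.295, 0.289 and 0.297 percent in wt/wt and 0.237, 0.245 and 0.221 percent in fl/fl libraries. For the small subunit genes the shares were 0.143, 0.132 and 0.134 and 0.107, 0.115 and 0.0990 percent. The ratio of summed TPM of the large to the small subunit was 1.99 ± 0.0892 in wt/wt and 2.00 ± 0.0672 in fl/fl libraries (SD, n = 3 each), so the balance of the subunits differed by less than the spread between libraries. Cytosolic ribosomal protein genes held 2.10, 2.18 and 2.53 percent of counts in wt/wt and 1.23, 1.21 and 1.08 percent in fl/fl libraries, 51.8% of the wt/wt share. The ratio of mitochondrial to cytosolic ribosomal protein genes in summed TPM was 0.151, 0.131 and 0.117 in wt/wt and 0.188, 0.199 and 0.201 in fl/fl libraries, higher in each fl/fl library than in each wt/wt library.

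**Figure D4:**
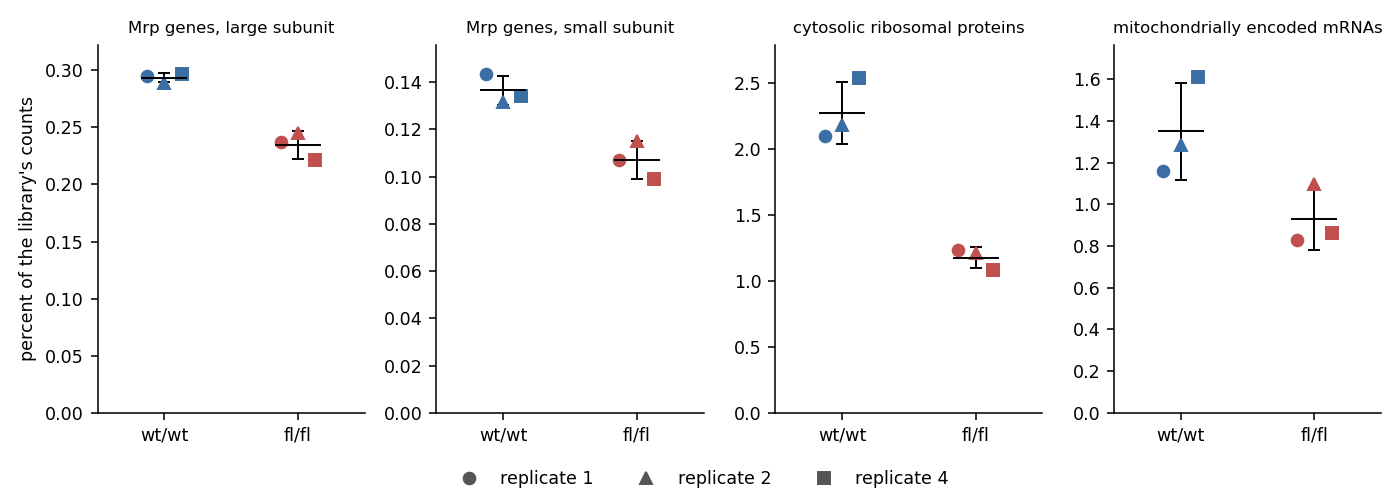
Percent of a library's counts on the large and small subunit genes, the cytosolic ribosomal protein genes and the mRNAs of the mitochondrial genome, per library (symbols by replicate number) with the mean (line) and SD (bar, n = 3). In each panel the fl/fl symbols lie below the wt/wt symbols, and the axes start at 0.

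The mitoribosome also has proteins whose genes carry other names, and the 5 examined were all below 0, at a median of −0.43 and none at an adjusted p below 0.05 in edgeR. Dap3, a GTP-binding protein of the small subunit, had 70.9, 57.3 and 58.3 CPM in wt/wt and 51.5, 49.8 and 38.0 CPM in fl/fl libraries, without overlap, a log2 fold change of −0.43 (adjusted p = 0.110, edgeR). Those of the small subunit genes Chchd1, Ptcd3 and Aurkaip1 were −0.46, −0.24 and −0.20. Gadd45gip1 of the large subunit had 12.5, 32.3 and 34.5 CPM in wt/wt and 20.7, 13.8 and 19.7 CPM in fl/fl libraries, with wt/wt library 1 the lowest of all, and a log2 fold change of −0.49 (SE 0.32). Without replicate 1 it was −1.02 (adjusted p = 0.0320, edgeR).

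Of 29 factors that assemble the mitoribosome 21 were below 0 (72.4%, against 48.5% of all genes), at a median of −0.21. Among them 1 passed the threshold as lower (3.45%, against 0.872% of all genes). This was Noa1, a GTPase needed for the small subunit, with 51.6, 36.2 and 35.2 CPM in wt/wt and 20.3, 20.0 and 19.0 CPM in fl/fl libraries. Each fl/fl library was below each wt/wt library, and the log2 fold change was −1.03 (SE 0.17, adjusted p = 0.00825, edgeR). With replicate 1, 2 or 4 left out the log2 fold change of Noa1 was −0.87, −1.11 or −1.11 and the adjusted p 0.0386, 0.0163 or 0.0130 in edgeR, so the call at 0.01 was lost each time. Without replicate 1 the list had 18 of 29 genes below 0 (49.8% of all genes were below 0) and a median of −0.013. Of 15 factors of mitochondrial translation 14 were below 0, with a median of −0.33, and none was at an adjusted p below 0.05 in edgeR (6 at an unadjusted p below 0.05, 40.0%, against 10.2% of all genes). Without replicate 1 this median was −0.20, with 2 of 15 at an unadjusted p below 0.05 (8.89% of all genes). The smallest adjusted p-values were those of Mrrf, which recycles ribosomes after termination, and Tsfm, the exchange factor of the elongation factor Tu. Mrrf had 18.1, 12.6 and 15.4 CPM in wt/wt and 8.75, 10.2 and 7.84 CPM in fl/fl libraries, a log2 fold change of −0.77 (adjusted p = 0.0706, edgeR), and Tsfm 49.1, 45.4 and 44.5 and 34.7, 34.6 and 33.7 CPM, a log2 fold change of −0.43 (adjusted p = 0.101, edgeR). In neither did the groups overlap.

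For the 13 mRNAs that the mitoribosome translates, the log2 fold changes were all below 0, at a median of −0.51, with none past the threshold, and 2 at an adjusted p below 0.05 in edgeR (15.4%, against 3.38% of all genes), which were mt-Nd5 (−0.84) and mt-Co1 (−0.67). Without replicate 1 the median was −0.56 and 0 were at an adjusted p below 0.05 in edgeR (1.69% of all genes), with 11 of 13 at an unadjusted p below 0.05 (8.89% of all genes). The median difference between libraries of the same number was −0.47, −0.18 and −0.97 for numbers 1, 2 and 4, and the groups did not overlap in 8 of the 13 (61.5%, against 15.1% of all genes). Together they held 1.16, 1.29 and 1.61 percent of counts in wt/wt and 0.829, 1.10 and 0.861 percent in fl/fl libraries. The cytosolic ribosomal protein genes had all 79 below 0, a median of −0.93, 47 past the threshold (59.5%, against 0.872% of all genes) and 71 at an adjusted p below 0.05 in edgeR (89.9%, against 3.38%). These lists were measured in the same 6 libraries, and the difference between them was not tested.

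**Figure D5:**
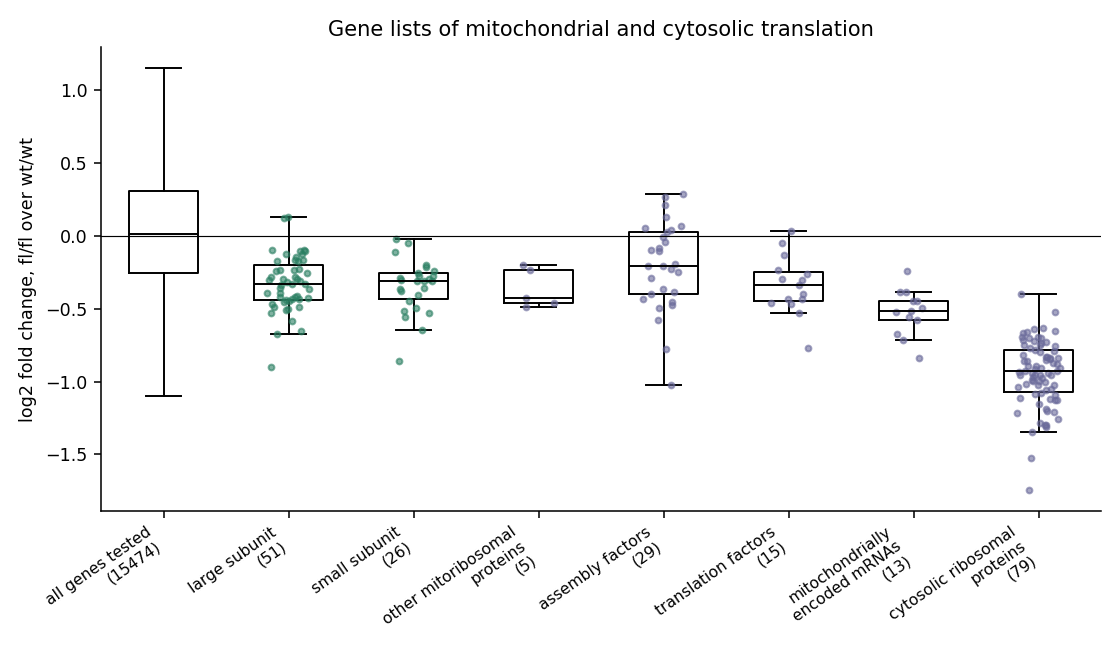
Log2 fold changes (edgeR) of the genes of each list (points), with boxes for the median and quartiles and whiskers to 1.5 times the quartile range, beside those of all 15474 genes tested. The mitochondrial lists have medians from −0.51 to −0.21, between all genes (0.014) and the cytosolic ribosomal proteins (−0.93).

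Part of the counts of the set were assigned to transcripts annotated as noncoding, such as those with a retained intron. They made up 23.7, 20.0 and 19.8 percent of the members' counts in wt/wt and 20.3, 20.6 and 20.8 percent in fl/fl libraries, with wt/wt library 1 the highest. In 10 genes they were over 50% of the counts, up to 88.7% in Mrpl3, and in 36 genes under 5%. With coding transcripts alone, 74 of the 78 genes were below 0. The value of Mrpl38, named after its values were seen, turned from −0.53 to 0.21. Its noncoding share was 88.2% in wt/wt library 1 and 47.6% to 56.1% in the other libraries.

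The transcripts of the set are short. Their median length was 990 bases, against 2228 for all genes tested, and with the trend between log2 fold change and length removed per library the median log2 fold change was −0.24. The start of another gene on the opposite strand lay within 1000 bases in 22 of the 78 genes (28.2%, against 10.8% of protein-coding genes tested), with up to 200 bases of overlap allowed. The median log2 fold change was −0.28 in genes with such a neighbour and −0.35 in those without. Of the 22 neighbours, 14 were below 0 (48.5% of all genes) and 8 above, with a median of −0.20. At an adjusted p below 0.05 in edgeR were 2 of the 22 (3.38% of all genes as lower), both lower and named after their values were seen. These were Fau (−0.64, adjusted p = 0.0433, edgeR), the gene of a cytosolic ribosomal protein, beside Mrpl49 (−0.29), and Ska3 (−0.91, adjusted p = 0.0301, edgeR), a gene of chromosome segregation, beside Mrpl57 (−0.17). At the pair of Mrps18b and Ppp1r10, whose starts are 45 bases apart, the values were −0.65 and 0.30.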

How the data were processed

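RNA-seq of 6 libraries was used, with SMART-Seq v4 single-end reads. The deposited tables give an estimated count and TPM per transcript. The labels and methods name Salmon and GRCh38, whereas columns are those of kallisto and identifiers are mouse. The authors' TPM, scaled by effective length and library total, served for levels. The authors' length columns, other than counts, served for offsets.

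Estimated counts were summed by GENCODE M21 symbol (100239 of 100583 transcripts matched) and rounded. Genes passing filterByExpr were fitted with TMM and a replicate block in edgeR 4.0.16 (quasi-likelihood, R 4.3.3), with Benjamini-Hochberg adjustment over all 15474 genes. The paper calls its tests paired. SE was the log2 fold change over the root of F. Alternatives used DESeq2 1.42.0 and limma 3.58.1 (on counts, and on log2(TPM + 1)). CPM differences had 0.1 added.

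Members and lists were chosen with earlier results of these data known. Named were genes past the threshold, the 6 lowest and 6 highest log2 fold changes, the 5 highest and 3 lowest TPM, members chosen for their role, the genes under other names, the leading factors and Myc. Any other gene was named after its values were seen. The fits were tested on simulated counts with planted changes larger than the set's median and without replicate effects. Changes of the size reported here were not simulated. Libraries of a genotype differed by more than sampling noise.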

Additional observations from a re-analysis of the deposited data

How the results depend on the processing

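The set's median stayed negative in every alternative (−0.40 to −0.23), and fl/fl libraries kept 76.5% to 82.1% of the wt/wt share of counts, and 82.7% of that of TPM. Genes lower past the threshold, 0 in the report (0.872% of all genes tested), numbered 5 with DESeq2 (3.47% of all), 2 without the filter on low counts (1.83%) and 1 without the replicate block (1.19%). At an adjusted p below 0.05 in edgeR (5 genes, with 3.38% of all genes tested), there were 10 without the replicate block (4.47% of all), 10 also without wt/wt replicate 1 (3.87%, chosen after seeing the data), 8 with the GC trend removed (3.24%), 3 with coding transcripts only (3.16%), 1 with effective length offsets (1.67%), 1 with the length trend removed (2.91%) and 0 to 2 with a replicate left out (1.69% to 2.61%, with 0 genes without replicate 1). There were 14 with DESeq2 (5.74%), 4 with limma on counts (3.04%), 4 with the largest adjusted p of edgeR, DESeq2 and limma (3.02%), and 0 with limma on TPM (0.543%). The cause was not tested. The labels do not say what libraries of equal number share, and the paper calls its tests paired. Being of different genotypes, such libraries come from different mice. Deviations of same-numbered libraries correlated at −0.012, −0.020 and 0.050. With 3 libraries per genotype this cannot decide whether they share a day.

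Of 612 recomputed values of single genes, 572 kept their direction and their side of the threshold. Signs turned only in genes near 0, except in Mrpl38. Mrps23 was 0.0036 with at least 10 counts in every library. On TPM, Mrpl41, Mrps11 and Mrps23 were 0.029, 0.078 and 0.14, and with the length trend removed 0.046, 0.073 and 0.074. Effective lengths gave 0.071 for Mrps23, and coding transcripts 0.0022 for Mrps11 and 0.21 for Mrpl38. With the GC trend removed Mrpl2 and Mrpl4 were −0.0058 and −0.054. Without wt/wt replicate 1, Mrpl41, Mrpl2 and Mrpl4 were 0.047, −0.056 and −0.0062. With each replicate left out in turn, Mrpl2 ran from −0.0011 to 0.26, Mrpl47 from −0.27 to 0.088, Mrps11 from −0.13 to 0.041, Mrps23 from −0.087 to 0.064 and Mrpl1 from −0.28 to 0.0060, turning without replicate 1 (Mrpl2) or 4. Noa1 missed the threshold in several alternatives, with the largest adjusted p (0.0577) from limma on TPM. The shallow wt/wt library limits what single genes can show.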
